A study of Mus musculus with 48 samples.

Results

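The elements described here are 734 short DNA elements of a massively parallel reporter assay in the embryonic mouse cortex, all those of the IPC class whose names carry the label asc. They are 734 of 2991 elements of that class, which also holds 1132 labelled desc and 1125 labelled unc, and of 11709 elements in the deposited table. The table also holds 996 elements labelled Scrambled, which serve as the controls, so that 10713 elements are not scrambled. What asc, desc and unc stand for, and on which measurement the labels were given, is not stated in the sources used here. The names of the asc elements give a number within the class, such as IPC_1367. Their sequences, positions and genes were not used here, so the elements are described by their activity.

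Enhancers are stretches of DNA that bind transcription factors and raise the transcription of a promoter, often in some cell types and at some ages only. In a massively parallel reporter assay a pool of plasmids carries 1 candidate element each beside a reporter, and the transcripts of each reporter are compared with its plasmid copies in the same cells. In the developing cortex, neural stem cells (NSC) line the ventricle and express the transcription factor Pax6. Their daughters, the intermediate progenitor cells (IPC), switch on Tbr2, the product of the Eomes gene, and divide to give excitatory neurons.

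Both cell types came from the somatosensory cortex of C57BL/6JRj embryos at 5 ages, embryonic days (E) 13 to 17. The plasmid library had been electroporated in utero 24 h before collection, so every value is from cells that carried the reporters for about a day, and the reporters were read from introduced DNA, not from the elements' own chromosomal sites. Dissociated cells were fixed in formaldehyde and stained for Pax6, Eomes and Tubb3, and Tbr2-positive cells were sorted as IPC and Pax6-positive cells as NSC. In IPC as in NSC, E14 and E15 had 3 biological samples and the other ages 2, 24 in all, with separate libraries of DNA and RNA. The deposited table pools them into 10 columns, 1 per cell type and age, and the variation between embryos or samples is therefore not known. The labelled cell types could not be checked against marker genes, since the table holds reporter activities only.

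Activities are given as the ratio of an element's deposited statistic to the median statistic of the scrambled controls in the same column, so that 1 is the middle of the controls. The scrambled median ranged from 0.164 to 2.37 between columns, and the scaled median absolute deviation of the controls from 0.432 of their median in NSC at E17 to 1.05 of it in NSC at E13. Of the 734 asc elements, 683 had a value in all 10 columns and 51 lacked at least 1, and 708 to 731 had a value in any 1 column. No filter on low values was applied. Read and barcode numbers behind the values were not used here, so the depth is unknown, and all intervals below cover the sampling of elements and not the spread between embryos.

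In IPC the typical asc element was as active as a control at E13 and above the controls at the later ages. The median ratio of the asc elements in IPC was 1.00 at E13 (95% interval from order statistics 0.95 to 1.07), 1.09 at E14 (1.03 to 1.14), 1.13 at E15 (1.07 to 1.19), 1.23 at E16 (1.12 to 1.37) and 1.38 at E17 (1.23 to 1.49). The 5 medians thus lay in the order of the ages, and the interval at E17 did not overlap those at E13, E14 and E15. Neighbouring ages were not separated, as the intervals of each age and the next overlapped. In NSC the medians were 0.98 at E13 (0.86 to 1.10), 1.09 at E14 (1.02 to 1.16), 1.14 at E15 (1.06 to 1.21), 1.22 at E16 (1.13 to 1.31) and 1.13 at E17 (1.08 to 1.18). The NSC medians were therefore highest at E16, with an interval that overlapped those at E14, E15 and E17. Averaged over the 5 ages, the column medians of the asc elements were 1.17 in IPC (SD over ages 0.144) and 1.11 in NSC (SD over ages 0.0905).

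**Figure D1:**
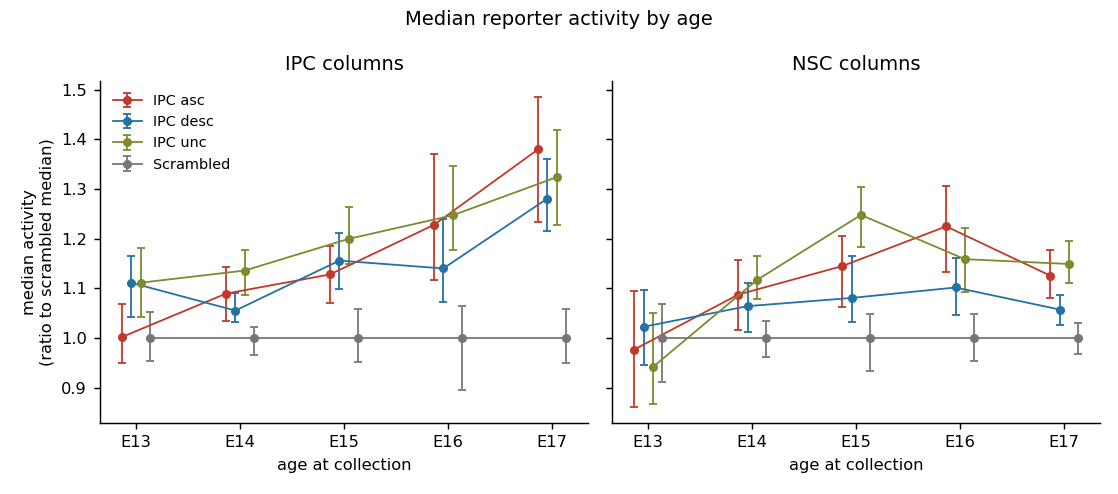
Median activity of the IPC elements labelled asc, desc and unc and of the Scrambled controls, as the ratio to the scrambled median (vertical axis), by age at collection (horizontal axis) in IPC columns (left) and NSC columns (right). Bars are 95% intervals from order statistics over elements; in IPC the asc median is 1.00 at E13 and 1.38 at E17, the lowest and the highest of the 3 labels at those ages.

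Set beside the other labels of the class, the asc elements began lowest in IPC and ended highest. At E13 in IPC their median of 1.00 stood against 1.11 for desc elements (1.04 to 1.16) and 1.11 for unc elements (1.04 to 1.18), with overlapping intervals. At E17 in IPC the asc median of 1.38 stood against 1.28 for desc elements (1.22 to 1.36) and 1.32 for unc elements (1.23 to 1.42), again with overlapping intervals. A median in the order of the ages was not particular to asc elements, since unc elements also had it, at 1.11, 1.14, 1.20, 1.25 and 1.32. All non-scrambled elements had it in IPC too, over a smaller range, at 1.036, 1.041, 1.079, 1.093 and 1.181. In NSC the medians of all non-scrambled elements were 0.99, 1.11, 1.15, 1.13 and 1.12 from E13 to E17. Averaged over ages, the asc elements' level of 1.17 in IPC lay between 1.15 for desc and 1.20 for unc elements.

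The excess over the controls at E17 lay in the upper part of the distribution. In IPC at E17 the asc value exceeded the scrambled value 1.07-fold at the 10th percentile, 1.17-fold at the 25th, 1.38-fold at the 50th, 1.59-fold at the 75th and 1.53-fold at the 90th. At E13 in IPC the same ratios were 0.91, 0.95, 1.00, 1.00 and 1.24, so only the uppermost percentile shown was above the controls. In NSC at E16, the age of the highest NSC median, they were 1.08, 1.12, 1.22, 1.35 and 1.33. At the 10th percentile the asc ratio stayed between 0.88 and 1.08 in all 10 columns. The pattern in IPC at E17 was not particular to asc elements. From the 10th to the 90th percentile the desc elements had 1.07, 1.18, 1.28, 1.39 and 1.61 there. The unc elements had 1.05, 1.20, 1.32, 1.44 and 1.57. At the 90th percentile in IPC at E13, desc elements had 1.32 and unc elements 1.85, both above asc elements.

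**Figure D2:**
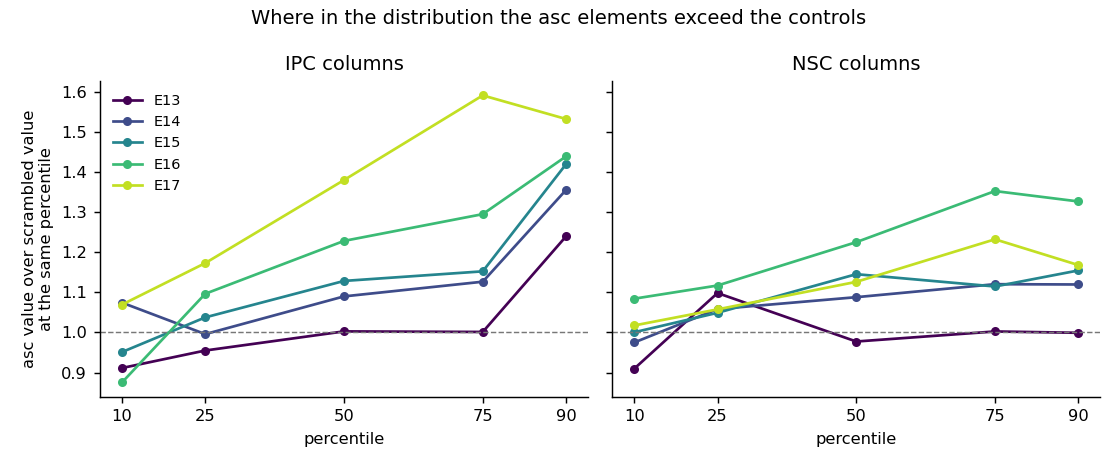
Ratio of the asc value to the scrambled value at the same percentile (vertical axis) at the 10th, 25th, 50th, 75th and 90th percentiles (horizontal axis), for each age in IPC columns (left) and NSC columns (right). In IPC at E17 the ratio is 1.59 at the 75th percentile, while at E13 it is 1.00 there.

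Counted against the scrambled median, 50.3% of asc elements lay above it in IPC at E13 (Wilson 95% interval 46.6 to 53.9) and 62.9% at E17 (59.3 to 66.3). In NSC the shares were 49.2% at E13 (45.6 to 52.9), 61.3% at E16 (57.7 to 64.8) and 59.5% at E17 (55.9 to 63.0). Over all non-scrambled elements the share above the scrambled median was 52.2% in IPC at E13 and 57.5% at E17, and 49.6%, 56.5% and 59.3% in NSC at E13, E16 and E17. Individual asc elements repeated this position more often than controls did, at shares near those of all non-scrambled elements. Of the 683 asc elements with 10 values, 138 (20.2%, 17.4 to 23.4) were above the scrambled median in at least 8 of 10 columns, against 18.1% of desc elements, 24.0% of unc elements, 17.9% of all non-scrambled elements and 7.33% of controls (5.84 to 9.16). In all 10 columns it was 14 asc elements (2.05%, 1.22 to 3.41), against 2.64% of desc elements, 4.08% of unc elements, 2.41% of all non-scrambled elements and 0.419% of controls. All 5 IPC columns were above the median for 11.6% of asc elements (9.38 to 14.2), against 11.2% of desc elements, 15.7% of unc elements, 9.07% of all non-scrambled elements and 4.19% of controls. All 5 NSC columns were above it for 8.35% of asc elements (6.50 to 10.7), against 7.54% of desc elements, 11.8% of unc elements, 9.73% of all non-scrambled elements and 3.25% of controls.

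The authors' deposited p-value sets an element against the controls in its column, and a call here is an adjusted value under 0.05 on the higher side. Scrambled controls were themselves called in 6.16% to 15.7% of cases per column, so each share of asc elements is read against them and against all non-scrambled elements. In IPC at E13, 18.3% of asc elements were called, against 19.6% of all non-scrambled elements and 15.7% of controls. In IPC at E14, it was 12.7% of asc elements, against 11.3% of all non-scrambled elements and 6.66% of controls. These early shares were near the background. In IPC at E15, 17.2% of asc elements were called, against 14.9% of all non-scrambled elements and 11.1% of controls. In IPC at E16, it was 19.6% of asc elements, against 16.1% of all non-scrambled elements and 12.4% of controls. The gap to the background was widest at E17, where 185 of 725 asc elements were called in IPC (25.5%, 22.5 to 28.8), against 18.7% of all non-scrambled elements and 10.3% of controls. The desc elements had 20.7% there (18.5 to 23.2) and the unc elements 22.1% (19.8 to 24.6), so both intervals overlapped that of asc elements. At E13 in IPC the asc share was the lowest of the labels, against 22.0% of desc and 24.1% of unc elements. At E14 in IPC it was 11.4% of desc and 17.2% of unc elements.

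In NSC the asc elements were called about as often as other elements. At E13 it was 14.5%, against 15.3% of all non-scrambled elements, and at E14 it was 12.1%, against 14.7%. At E15 the share of asc elements called in NSC was 11.3%, against 12.5% of all non-scrambled elements, and at E16 it was 21.5%, against 19.4%. At E17 it was 11.4%, against 13% of all non-scrambled elements and 6.16% of controls. The share of asc elements was thus below the background at 4 of 5 ages and above it at E16.

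**Figure D3:**
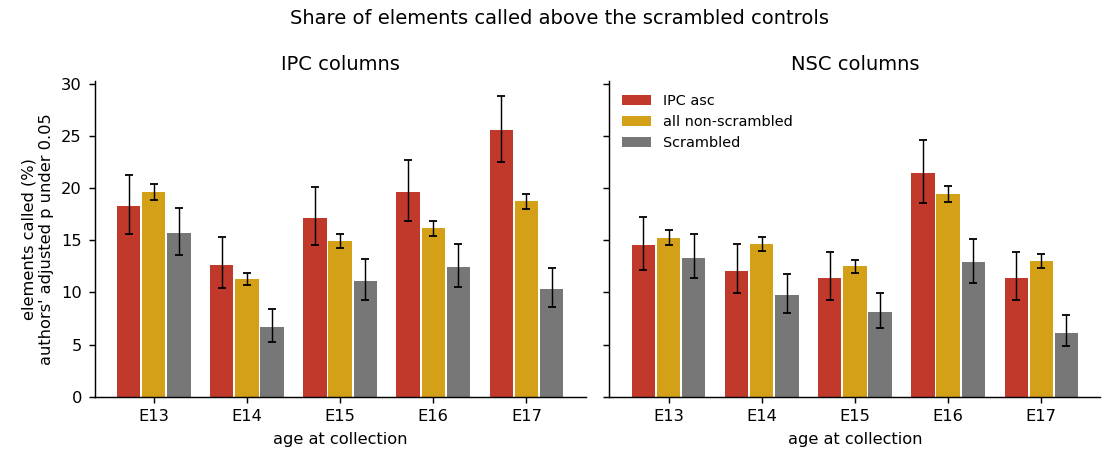
Share of elements with an authors' adjusted p under 0.05 (vertical axis, percent) by age (horizontal axis) in IPC columns (left) and NSC columns (right), for asc elements, all non-scrambled elements and Scrambled controls. Bars start at 0 and error bars are Wilson 95% intervals over elements; at E17 in IPC the asc share is 25.5%, against 18.7% of all non-scrambled elements.

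Repeated calls were few. Of 725 asc elements with at least 3 IPC values, 45 (6.21%, 4.67 to 8.20) were called in at least 3 of 5 IPC columns, against 5.09% of all non-scrambled elements, which lies inside the asc interval, and 1.21% of controls. The desc elements had 5.59% and the unc elements 9.16%. In at least 3 of 5 NSC columns it was 27 of 729 asc elements (3.70%, 2.56 to 5.34), against 4.72% of all non-scrambled elements and 1.31% of controls. The lists met in 3 elements, 6.67% of the 45 and 11.1% of the 27. These were 0.415% (0.141 to 1.21) of the 723 asc elements with at least 3 values in each cell type, against 0.571% of all non-scrambled elements. Of the 723, 161 were called in no column (22.3%, 19.4 to 25.4), against 25.8% of all non-scrambled elements and 36.9% of controls. In at least 5 of 10 columns it was 17 (2.35%, 1.47 to 3.73), against 3.45% of all non-scrambled elements and 0.303% of controls.

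A stricter count took values above an upper limit in each column that only 2.5% of control values pass by construction. In IPC 198 of 3592 asc values did so (5.51%, 4.81 to 6.31), against 5.3% of all non-scrambled values, 5.89% for desc and 7.18% for unc elements. In NSC 133 of 3613 asc values did so (3.68%, 3.11 to 4.35), against 4.14% of all non-scrambled values. An element enters each of these counts up to 5 times, and the intervals treat its values as independent. Both shares were above that of the controls and near that of the other elements. By column the share of asc values in IPC was 4.33%, 6.20%, 2.65%, 6.21% and 8.14% from E13 to E17, against 5.38%, 5.84%, 3.77%, 4.64% and 6.85% of all non-scrambled values. It was below that background at E13 and E15, and at E17 desc elements (9.16%) and unc elements (8.68%) were above asc elements. In NSC the asc shares were 3.07%, 2.61%, 2.90%, 4.21% and 5.61%, against 3.15%, 4.12%, 3.49%, 3.41% and 6.52% of all non-scrambled values, and so above the background at E16 alone.

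The change with age was then measured element by element, as a least-squares slope per day of log2 activity relative to the scrambled controls, with 0.1 added to the ratio before the logarithm. In IPC the asc slopes averaged 0.10 per day (0.0959 ± 0.0141, SE over 691 elements), and 63.4% of them were positive. The slopes of desc elements averaged 0.0402, those of unc elements 0.0159 and those of controls 0.00355, with 57.1%, 54.6% and 51.5% positive. Over all non-scrambled elements the IPC slopes averaged 0.0282, with 54.7% positive. The asc slopes exceeded those of desc elements by 0.0557 (95% interval over elements 0.0199 to 0.0916) and those of unc elements by 0.0801 (0.0442 to 0.116). The difference from desc elements was 0.0258 when E13 was left out. Elements are not replicates of a condition, and each age is 1 pooled column, so these intervals do not cover the variation of an age between embryos.

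In NSC the asc slopes averaged 0.0581 ± 0.0149 per day (SE over 699 elements), and 58.4% were positive. This share was near the 57.1% of all non-scrambled elements, whose slopes averaged 0.0341, and below the 60.3% of unc elements. Controls averaged 0.00528, with 54.7% positive. The asc slopes exceeded those of desc elements, which averaged 0.0144, by 0.0436 (0.00667 to 0.0806). They differed from those of unc elements, which averaged 0.0563, by 0.00174 (-0.0347 to 0.0382). The steeper slope of asc than of unc elements was thus seen in IPC and not in NSC. The IPC slope minus the NSC slope was 0.0409 for asc and -0.0347 for unc elements, a difference of 0.0757 (0.0264 to 0.125). For desc elements it was 0.0207, and asc elements differed from them by 0.0202 (-0.0295 to 0.0699), an interval that includes 0. From controls, at -0.00852, asc elements differed by 0.0494 (0.000106 to 0.0988).

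Pairs of ages were also compared directly, and the order of the labels differed between these counts. In IPC 419 of 713 asc elements were higher at E17 than at E13 (58.8%, 55.1 to 62.3), against 54.4% of desc elements, 51.3% of unc elements, 51.6% of all non-scrambled elements and 48.1% of controls. In NSC it was 403 of 716 (56.3%, 52.6 to 59.9), against 52.9% of desc elements, 56.5% of unc elements, 54.6% of all non-scrambled elements and 51.1% of controls. In both cell types at once, 238 of 683 asc elements were higher at E17 (34.8%, 31.4 to 38.5), against 28.9% of desc elements, 29.1% of unc elements, 29.2% of all non-scrambled elements and 25.3% of controls. A stronger ordering, with each of E16 and E17 above each of E13 and E14 in both cell types, was met by 41 asc elements (6.00%, 4.46 to 8.04), against 3.58% of desc elements, 4.56% of unc elements, 4.04% of all non-scrambled elements and 3.04% of controls. The opposite ordering was met by 18 asc elements (2.64%, 1.67 to 4.13), against 2.90% of all non-scrambled elements and 2.93% of controls.

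No single element passed a test of the age trend. A limma fit across all elements with 10 values, with 1 slope over both cell types and the columns as observations, called 0 of 683 asc elements rising and 0 falling at an adjusted p under 0.05 (0% of the 9886 non-scrambled elements in either direction, lowest adjusted p of an asc element 0.625). At an unadjusted p under 0.05, 42 asc elements had a positive slope (6.15%), against 4.05% of all non-scrambled elements and 3.04% of controls. A negative slope at that threshold was found for 20 asc elements (2.93%), against 3.61% of all non-scrambled elements and 4.08% of controls. The median fitted slope was 0.08 per day for asc elements and 0.03 for all non-scrambled elements. Without E13 the unadjusted counts were 11 positive and 4 negative (1.60% and 0.581% of asc elements), both below the 1.88% and 1.35% of all non-scrambled elements. Without E17 they were 58 and 33 (8.49% and 4.83% of asc elements), against 5.34% and 4.83% of all non-scrambled elements. In this fit the ages stand in for replicates, so its p-values measure scatter over pooled columns and not over animals.

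The elements with the steepest slopes that kept the order of late and early ages in both cell types are given as descriptions, since they were chosen on these values. IPC_1529 had ratios of 0.849, 0.324, 1.03, 1.93 and 12.6 in IPC from E13 to E17, and 0.101, 0.144, 4.58, 7.96 and 0.879 in NSC. Its values were below the control median or near them at E13 and E14, and its peak came at E17 in IPC and at E16 in NSC. IPC_1142 had ratios of 1.21, 0.859, 1.27, 3.93 and 6.64 in IPC, and 0.207, 0.948, 0.689, 3.05 and 1.09 in NSC. IPC_854 had ratios of 1.60, 1.01, 1.01, 3.41 and 4.06 in IPC, and 0.429, 1.88, 1.99, 4.39 and 3.02 in NSC. By the rule of choice, every E16 and E17 value of these elements lay above every E13 and E14 value of the same cell type. The fitted slopes were 0.97 ± 0.30 per day for IPC_1529, 0.62 ± 0.18 for IPC_1142 and 0.53 ± 0.17 for IPC_854 (SE from limma, adjusted p = 0.625 for each). IPC_2833 and IPC_1649 completed the 5, with their highest IPC values, 8.95 and 14.8, at E16 and 1.70 and 1.32 at E17.

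The reverse order was shown by IPC_971, with ratios of 51.6, 5.61, 3.22, 1.65 and 1.43 in IPC and 3.54, 1.30, 8.32, 0.380 and 0.508 in NSC. It was lower at each later age in IPC, and its slope was -0.93 ± 0.25 per day (limma adjusted p = 0.625). IPC_612 had ratios of 7.47, 1.61, 1.28, 0.477 and 0.339 in IPC, and 5.18, 5.81, 0.471, 0.603 and 1.34 in NSC. IPC_878 had ratios of 15.1, 1.88, 2.06, 0.402 and 0.959 in IPC, and 2.10, 2.34, 0.645, 0.289 and 0.546 in NSC. In IPC each of these 3 elements had its highest value at E13, while in NSC IPC_971 was highest at E15 and the other two at E14. IPC_2435 reached 45.4 in NSC at E13 and 11.9 in IPC at E15, and IPC_569 reached 8.85 in IPC at E13, with 0.199 and 0.202 at E16 in IPC and NSC.

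**Figure D4:**
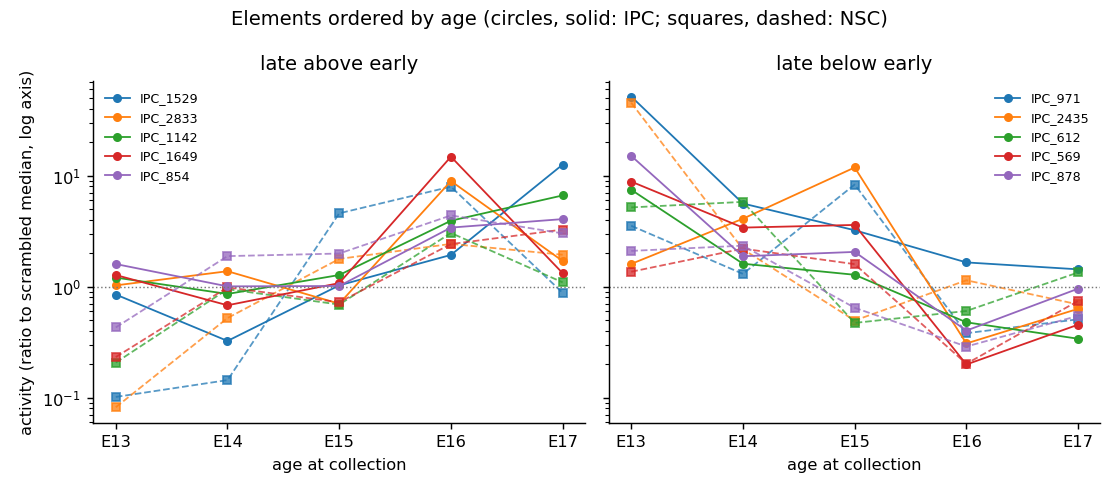
Activity of the 5 asc elements with the steepest slopes in each direction among those whose E16 and E17 values lie beyond E13 and E14 in both cell types, as the ratio to the scrambled median (vertical log axis), by age (horizontal axis). Circles and solid lines are IPC, squares and dashed lines NSC; IPC_1529 reaches 12.6 in IPC at E17, and IPC_971 stands at 51.6 in IPC at E13.

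Between cell types the asc elements differed little on average. On the log2 scale relative to the controls, activity in IPC minus that in NSC averaged 0.06 over the 5 ages (0.0607 ± 0.0276, SE over 683 elements), and 53.7% of elements were positive. By age the mean difference was 0.02, 0.07, 0.02, -0.02 and 0.20 from E13 to E17. The E17 columns carried most of it, and without E17 the mean was 0.0201. The difference from the controls was 0.0563 over all ages (-0.0119 to 0.125), an interval that includes 0, and 0.206 at E17 alone (0.0802 to 0.332).

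The other labels of the class leaned further towards IPC. The mean IPC minus NSC difference was 0.13 for desc elements and 0.16 for unc elements, so the asc elements were lower by -0.0733 (-0.142 to -0.00424) and -0.103 (-0.172 to -0.0331). Without E13 the difference from unc elements was -0.0434. The gap to the unc elements was widest at E13, where asc elements had 0.02 and unc elements 0.32. At E17 asc elements had 0.20, unc elements 0.14 and desc elements 0.29. The asc minus unc difference at E17 was 0.0600 (-0.0715 to 0.192), an interval that includes 0.

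The limma test of the cell types, with age as a block, called 0 of 683 asc elements higher and 0 lower in IPC at an adjusted p under 0.05 (0% of all non-scrambled elements in each direction, lowest adjusted p of an asc element 0.659). At an unadjusted p under 0.05, 25 asc elements were higher in IPC (3.66%), against 3.87% of all non-scrambled elements and 2.30% of controls, and 14 were lower (2.05%), against 3.23% of all non-scrambled elements and 2.62% of controls. Both shares of asc elements were at or under the background. A higher value in IPC at all 5 ages was found for 33 asc elements (4.83%, 3.46 to 6.71), against 6.50% of desc elements, 7.12% of unc elements, 4.51% of all non-scrambled elements and 3.04% of controls. A lower value at all 5 ages was found for 21 asc elements (3.07%, 2.02 to 4.65), against 3.87% of all non-scrambled elements and 3.04% of controls, so both counts lay near the background.

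The elements named next were chosen on these values and are given as descriptions. The 33 elements higher in IPC were so at all 5 ages by the rule of choice, and IPC_1367 was 1 of them. Its ratios were 7.56, 2.31, 4.65, 4.96 and 4.50 in IPC from E13 to E17, and 0.909, 0.985, 1.39, 1.56 and 1.00 in NSC. Every IPC value was above every NSC value, the authors' p called it in 5 of 5 IPC columns and 0 of 5 NSC columns, and the fitted difference was 1.88 ± 0.47 on the log2 scale (limma adjusted p = 0.659). IPC_723 had the largest difference, 2.63 ± 0.67 (limma adjusted p = 0.659), with ratios of 3.12, 1.52, 1.98, 22.9 and 2.37 in IPC and 0.186, 0.204, 0.530, 0.562 and 1.74 in NSC. Its NSC values were below the control median at 4 of 5 ages. IPC_2 had ratios of 2.03, 1.19, 9.57, 4.30 and 3.45 in IPC, against 1.21, 0.687, 0.885, 1.12 and 0.661 in NSC. IPC_1461 and IPC_3015 completed the 5, with fitted differences of 2.08 ± 0.46 and 1.96 ± 0.52 (limma adjusted p = 0.659 for each).

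The opposite order, lower in IPC at all 5 ages, was met by 21 asc elements (3.07%), against 3.04% of controls. Those named here were also chosen on these values. IPC_1476 had ratios of 0.391, 1.23, 0.910, 1.85 and 2.25 in IPC, against 6.57, 4.15, 1.97, 3.88 and 3.79 in NSC. It was called in 0 IPC and 4 NSC columns, with a fitted difference of -1.64 ± 0.56 (limma adjusted p = 0.659). IPC_257 had ratios of 0.147, 0.414, 0.203, 0.0170 and 0.418 in IPC, below the control median at each age, against 0.423, 10.97, 1.18, 0.487 and 4.95 in NSC. IPC_845 was also below the control median at each age in IPC, between 0.344 and 0.743, and ranged from 0.924 to 24.96 in NSC. IPC_994 and IPC_49 completed the 5, with fitted differences of -1.63 ± 0.59 and -1.22 ± 0.59 (limma adjusted p = 0.659 and 0.721).

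**Figure D5:**
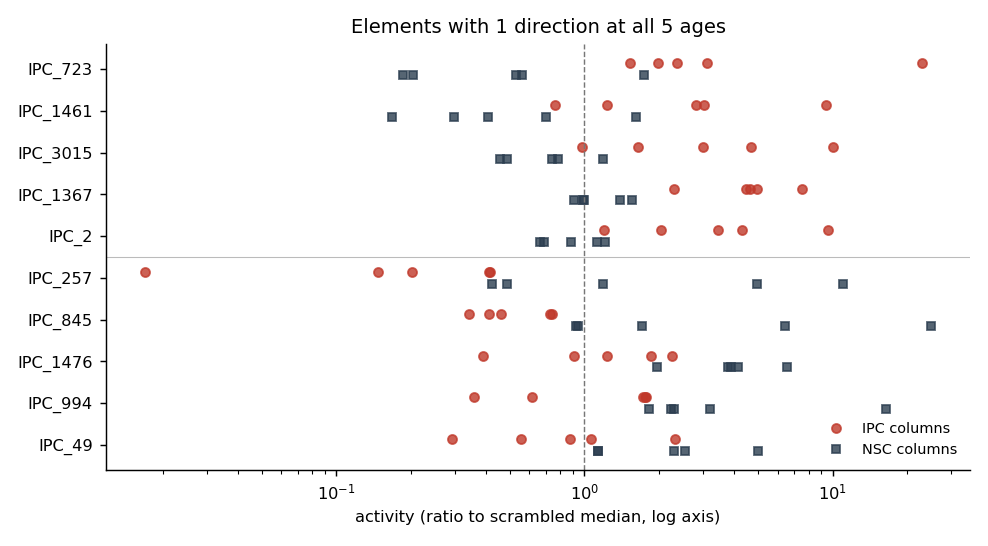
Activity of 10 asc elements as the ratio to the scrambled median (horizontal log axis), 1 row per element, with the 5 IPC columns as circles and the 5 NSC columns as squares. The upper 5 elements are higher in IPC at each age and the lower 5 higher in NSC at each age; the IPC values of IPC_1367 lie between 2.31 and 7.56 and its NSC values between 0.909 and 1.56.

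The elements with the highest mean in IPC, among the 43 with 10 values that were called in at least 3 IPC columns, differed in how steady they were. IPC_929 had the highest mean, 2.60 on the log2 scale, from ratios of 40.2, 1.26, 1.42, 53.3 and 3.90, so 2 of its 5 ages carried the mean. IPC_2534 had a lower mean, 1.82, from ratios of 4.25, 3.87, 2.57, 4.33 and 5.64, and it was called in 5 of 5 IPC columns and in 0 NSC columns, where its ratios were 2.30, 1.95, 1.40, 2.29 and 1.19. It and IPC_1367 were the 2 asc elements called at every age in IPC (0.276% of 725). This share was near the 0.257% of all non-scrambled elements, and unc elements had 0.629%. IPC_2090 had ratios of 15.9, 2.47, 7.20, 18.9 and 0.673 in IPC and was called in 4 of 5 IPC columns, but stood below the control median at E17. IPC_2068 was also called in 4 IPC columns, with ratios of 12.7, 8.07, 3.01, 1.62 and 3.69. Of the remaining members of this list, IPC_1882 was called in 4 IPC columns, and IPC_971, IPC_1451, IPC_2643 and IPC_1055 in 3.

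In NSC the highest means, among the 27 called in at least 3 NSC columns, belonged to IPC_2044, IPC_1045, IPC_1476, IPC_994 and IPC_2513. IPC_2044 had ratios of 36.6, 3.16, 1.20, 6.21 and 1.76 in NSC and reached 12.4 in IPC at E16. IPC_1045 had ratios of 5.82, 3.51, 1.45, 3.67 and 8.45 in NSC and was called in 4 of 5 NSC columns. IPC_2513 was active in both cell types, with ratios of 9.48, 4.26, 4.38, 1.74 and 1.99 in IPC and 6.78, 2.54, 3.46, 2.94 and 1.50 in NSC. It was called in 3 IPC and 4 NSC columns, and its fitted IPC minus NSC difference was 0.24 ± 0.46 (limma adjusted p = 0.946). The elements nearest the median of the asc group, IPC_3231 and IPC_1851, show how far a middling element varied. IPC_3231 ranged from 0.774 to 2.64 in IPC and from 0.731 to 1.96 in NSC, while IPC_1851 ranged from 0.361 to 3.81 in IPC and from 0.169 to 7.95 in NSC.

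The order of the asc elements in 1 column said little about their order in another. Over the 10 pairs of IPC columns, Spearman's rho across asc elements had a median of 0.09 (0.02 to 0.20, above 0 in 10 of 10 pairs). Across scrambled controls it had a median of 0.05 (-0.03 to 0.19, above 0 in 8 of 10 pairs). Over the 10 pairs of NSC columns the median was 0.04 for asc elements (above 0 in 9 pairs) and 0.02 for controls (in 8). Over the 25 pairs of an IPC with an NSC column it was 0.07 for asc elements (above 0 in 24 pairs) and 0.03 for controls (in 16). The elements share their plasmid library across columns, and elements are not independent replicates. The highest single values fell on different elements in each column, between 19.7 for IPC_2800 in NSC at E17 and 224 for IPC_2917 in IPC at E17, which were named after their values were seen.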

How the data were processed

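The 48 libraries of 24 biological samples were grouped by labelled cell type and age. The submitters' processing notes name cutadapt, without a version, and build mm10. The aligner, barcode counting, filters and activity tool were not given in the sources used here. A table deposited by the authors combines the 2 or 3 biological samples of each group and gives, per the file headers, an activity score (statistic), a MAD score and a p-value. Recomputed from the MAD scores as a 1-sided normal p with Benjamini-Hochberg adjustment per column, the authors' p-value differed by at most 6.11e-15.

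Statistics were expressed relative to the column's scrambled median. Slopes and mean differences used log2(ratio + 0.1) minus the scrambled mean of the column, which understates changes of low values. limma 3.58.1 was fitted on log2(ratio + 0.1) of all elements with 10 values, with age as a block (cell type) or cell type as a covariate (age), and adjusted by Benjamini-Hochberg over the 9886 non-scrambled elements. The fit was also run on simulated data with planted changes. How many of these it recovered is not given here, so whether it could call changes of the size seen is not known. Shares have Wilson intervals, medians exact order-statistic intervals and differences of means normal intervals from their SE, all at 95%. Depth is unknown.

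The members and lists were chosen with earlier results of these data known. Elements were named by rule: the 10 highest means in IPC and 5 in NSC among elements called in at least 3 columns of that cell type; the 5 largest cell type differences and 5 steepest slopes in each direction, filled, since limma called 0, by elements with 1 sign at all 5 ages or late ages beyond early ones in both cell types; and the 2 nearest the median. Alternatives were another pseudocount, limit, threshold, summary, filter or prior, the MAD score, the centring, and each age left out.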

Additional observations from a re-analysis of the deposited data

How the results depend on the processing

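No paired analysis was possible because the deposited columns combine the biological samples of a group and carry no replicate numbers. Of 157 alternative values, 138 stayed within the spread of the reported one, 19 moved and 0 turned direction. The 19 that moved all used another summary, limit, threshold, number of columns or unit, and they are listed next. The 138 include the limma counts, which were 0 under every setting. With the mean over elements in place of the median, activity was 2.12 in IPC and 1.83 in NSC. With the limit at the 95th percentile of controls, 9.97% of values passed in IPC and 6.48% in NSC, and at the 99th 2.81% and 1.58%. With the authors' p under 0.01, 4.41% of elements were called in at least 3 IPC columns and 1.92% in NSC. In at least 2 columns it was 23.9% and 15.9%, against 19.3% and 17.6% of all non-scrambled elements. In at least 4 columns it was 1.24% and 0.412%, against 1.46% and 0.869% of all non-scrambled elements. For the other limits and for p under 0.01 no such share is given, so those values are not read against the background. On the MAD score scale, another unit, the slopes were 0.464 in IPC and 0.166 in NSC, the IPC slope exceeded that of desc elements by 0.352 and of unc elements by 0.590, the IPC minus NSC difference was 0.153, and it was lower than in desc and unc elements by -0.234 and -0.578.

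With each age left out in turn, the median ran from 1.11 to 1.21 in IPC and 1.08 to 1.15 in NSC, and the share of values above the limit from 4.85% to 6.23% and 3.19% to 3.95%. The slopes ran from 0.0832 to 0.100 in IPC and 0.0465 to 0.0867 in NSC. The IPC slope exceeded that of desc elements by 0.0258 (without E13) to 0.0790 and that of unc elements by 0.0593 to 0.0862. The IPC minus NSC difference ran from 0.0201 (without E17) to 0.0804, its gap to desc elements from -0.0946 to -0.0528 and to unc elements from -0.143 to -0.0434 (without E13). limma called 0 asc elements in each of these fits and under each alternative tried. Values rest on 1 pooled column per cell type and age, so embryos, days and batches cannot be told apart from ages.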
